A study of Mus musculus with 24 samples.

Results

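STAU2 target turnover between embryonic day 11.5 (E11.5) and E13.5 was followed through 3718 of the 21992 protein-coding genes of the mouse annotation. These genes had at least 1 listed peak that shared 1 base or more with one of their exons on the same strand on either day. The same was true of 6609 genes when all 4 days of the series were counted. A gene is called gained when such a peak was listed at E13.5 only, lost when it was listed at E11.5 only, and shared when it was listed on both days. The words describe entries in peak lists, not levels of RNA.

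The series compared RNA recovered from mouse cortex by RNA immunoprecipitation (RIP) with a monoclonal antibody against STAU2 with RNA of the input lysate. The labels give 3 RIP and 3 input libraries at E11.5 and as many at E13.5, each replicate made from the cortices of 1 pooled litter. No strain, genotype or treatment is given, and the labels distinguish the groups by day and kind of library alone. The authors combined the libraries of a day into 1 peak list per strand, so the lists hold no value per replicate and no read depth, and the numbers below carry no replicate error.

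STAU2 binds RNA through double-stranded RNA-binding domains and recognises folded stretches of messenger RNA, many of them in 3' untranslated regions (3' UTRs). In neurons it belongs to granules that carry transcripts along microtubules into dendrites. In radial glia, the dividing stem cells of the cortical wall, it takes part in handing transcripts unequally to the daughter cells, one of which goes on towards neurogenesis. From E11.5 to E13.5 the cortex moves from mostly expanding its progenitors to making intermediate progenitors and the first layers of neurons.

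The lists held 6530 peaks at E11.5 and 5871 at E13.5, each below 0.01 in the authors' q-value. They leave unstated in which direction RIP and input differ at a peak. Peaks of the positive lists lay over plus-strand genes in 94.1% to 97.4% of cases with exactly 1 gene under the peak, over all 4 days, against 3.64% to 4.75% for the negative lists, so the pairs were read as strands. Of 15 cortical marker genes, 3 had a peak at E11.5, Emx2 and Tbr1 among them, and 7 at E13.5, among them Emx2, Pax6, Eomes, Neurod6, Neurod2 and Dcx. Emx1, Sox2, Hes1, Hes5, Nes, Vim and Tubb3 had none on either day, which says nothing of whether the cortex expressed them. Day and any difference in depth or preparation between the libraries of the days cannot be told apart.

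Peak sequences from a few genes show which stretches were listed on each day. All are written 5' to 3' on the transcript strand, from GENCODE vM21 transcripts on GRCm38 (mm10). Stretches of 3' UTR are cut to 30 bases. Zfand3, which encodes a zinc finger protein, kept a coding peak. The E11.5 peak lay at chr17:30135346-30135503 on the plus strand, and the capitals mark the 95 bases that were listed again at E13.5:
Zfand3, E11.5: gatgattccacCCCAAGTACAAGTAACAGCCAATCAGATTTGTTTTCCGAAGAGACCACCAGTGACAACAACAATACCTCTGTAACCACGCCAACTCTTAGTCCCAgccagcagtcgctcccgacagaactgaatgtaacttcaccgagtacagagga

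Fkbp1a, which encodes the immunophilin FKBP12, and Capzb, which encodes the beta subunit of the actin-capping protein, kept peaks in the 3' UTR. The windows lie on the plus strand at chr2:151560626-151560655 and chr4:139291288-139291317. They are the 30 bases of lowest folding energy in the stretch common to both days, and the capitals mark bases that were paired in the fold RNAfold predicted for the window:
Fkbp1a, both days: CCATGGAGGaatctggtaCCTCCAgaTGGg
Capzb, both days: cCCACgACGTTTCcataGAGAcCGTGTGGt

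Stau2 itself, the gene of the precipitated protein, had a coding peak at E11.5 (chr1:16374734-16374808, minus strand) and a 3' UTR peak at E13.5 (chr1:16344817-16344950). In the coding peak the capitals mark the 30 bases of lowest folding energy. The 3' UTR stretch is the centre of its peak (chr1:16344869-16344898), and no base of it was paired in the prediction:
Stau2, E11.5: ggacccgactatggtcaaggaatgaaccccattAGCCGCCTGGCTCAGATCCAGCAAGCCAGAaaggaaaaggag
Stau2, E13.5: agcttctttcccacttattcttgttccctt

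Mki67, which encodes the proliferation marker Ki-67 with its long array of internal repeats, had its strongest peaks at E11.5 (chr7:135696888-135697108) and E13.5 (chr7:135697216-135697425, both minus strand) in neighbouring stretches of coding sequence 107 bases apart. The capitals mark the longest run common to both, 70 bases:
Mki67, E11.5: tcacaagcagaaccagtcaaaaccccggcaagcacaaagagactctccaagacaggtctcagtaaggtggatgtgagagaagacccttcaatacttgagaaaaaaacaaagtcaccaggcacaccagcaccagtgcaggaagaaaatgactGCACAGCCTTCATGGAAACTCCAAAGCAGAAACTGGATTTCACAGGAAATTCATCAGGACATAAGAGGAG
Mki67, E13.5: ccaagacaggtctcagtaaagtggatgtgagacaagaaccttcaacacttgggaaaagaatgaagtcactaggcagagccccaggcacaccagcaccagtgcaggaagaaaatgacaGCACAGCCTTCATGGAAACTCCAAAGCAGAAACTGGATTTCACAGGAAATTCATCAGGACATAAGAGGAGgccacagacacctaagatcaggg

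Each of these stretches was also overlapped by a weaker peak of the other day, by 170 and 187 bases, so both places were listed on both days. Short reads inside such a run cannot be placed by sequence alone. The last pair shows a lost and a gained coding peak, with the 30 bases of lowest folding energy in capitals. Satb1, a chromatin organiser of maturing neurons, had its peak at chr17:51740135-51740184 on the minus strand, and Rnf130, a ubiquitin ligase gene, at chr11:50052853-50052915 on the plus strand:
Satb1, lost, E11.5: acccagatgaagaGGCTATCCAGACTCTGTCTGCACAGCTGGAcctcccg
Rnf130, gained, E13.5: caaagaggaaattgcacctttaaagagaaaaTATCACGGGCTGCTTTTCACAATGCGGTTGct

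Most genes with a peak on either day had one on 1 day only. Of the 3718 genes, 1726 were gained (46.4%), 1140 were lost (30.7%) and 852 were shared (22.9%). The E11.5 list covered 1992 genes and the E13.5 list 2578, so 42.8% of the E11.5 genes were listed again at E13.5. At the next step, from E13.5 to E15.5, 66.1% of the earlier genes were listed again, and from E15.5 to E17.5 42.8%. Of the E13.5 genes, 33.0% had already been listed at E11.5, against 39.1% and 62.8% of the later genes in the steps after it. These shares depend on list length as well as on the genes: E15.5 had 10265 peaks in 4358 genes. Where the E11.5 list was cut to its strongest 5871 peaks by the authors' p, 1041 genes were lost and 1786 gained.

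Few lost genes had a peak elsewhere in the gene. Of the 1140 lost genes, 25 (2.19%) had any same-strand peak within the gene at E13.5, introns included, and 65 of the 1726 gained genes (3.77%) had one at E11.5. Over all protein-coding genes, counting peaks anywhere in the gene raised those with a peak on either day from 3718 to 4078. The shares of 2.19% and 3.77% were not compared with genes that had no exonic peak. Tbr1 was among the 25, and Eomes, Dcx, Ep300, Pbrm1, Fmr1 and Srrm4 were among the 65. Peaks that shared fewer than 10 bases with an exon carried 23 lost and 21 gained genes. Where at least 50% of a peak had to lie in exons, 214 of the gained and 168 of the lost genes no longer had a peak, and 702 of the 852 shared genes stayed shared. Those without a peak then included Crebbp, Chd8, Stmn1, Stmn3, Kif5a and Upf1 of the gained and Cpeb4, Msi2, Mbnl1 and Cdh2 of the lost. A gene without a listed peak may still be bound, because the lists end at the authors' threshold and hold no value for regions that missed it.

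The strongest lost peaks lay in genes of varied function. By the authors' deposited p, Upf2, a core factor of nonsense-mediated decay, ranked 4 of the E11.5 list with 4 exonic peaks, its strongest centred in an intron (chr2:6052119-6052270). Ccdc50 followed at rank 5 with a 3' UTR peak and 3 peaks in all. Atf4, whose product drives the integrated stress response, ranked 11 with a coding peak of 422 bases (chr15:80256730-80257151). Rfng, a glycosyltransferase that modifies Notch receptors, ranked 13 with its only peak in the 3' UTR. Satb1 ranked 17, and Nucks1, a chromatin-associated protein gene, ranked 29. The 12 strongest also included Trmt112, a partner of methyltransferases (rank 25), H3f3a, a histone H3.3 gene (rank 30), Atp5f1 of the ATP synthase (rank 31) and Cnih2, an AMPA receptor accessory protein gene (rank 35). H3f3a shares its protein product with another gene and has processed copies, so the placement of its reads is uncertain. Atf4 and Rfng were listed again at E15.5 and E17.5, whereas Upf2, Ccdc50, Satb1 and H3f3a were listed on neither later day.

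RNA-binding regulators of mRNA fate, which set the stability and translation of their targets, stood mostly on the lost side. Of 29 members, 19 had a peak on either day: 12 were lost (63.2%), 2 gained and 5 shared, beside 30.7% lost among all 3718 genes. The list was drawn up with earlier results of these data known, so its lean is no independent support. Related genes such as Fmr1 (gained) and Caprin1 (lost) were counted in another list. The lost members included 3 Elav genes, whose proteins bind AU-rich stretches: Elavl1 with a coding peak at rank 416, Elavl3 with 4 peaks and Elavl4 with 6. They also included Zfp36l1, a decay factor gene with 4 peaks and a best rank of 401, its relative Zfp36l2, Qk with 3 peaks, Celf1, Cpeb4, Msi2, and the oncofetal regulators Igf2bp2, Igf2bp3 and Lin28b. Larp1, a regulator of ribosomal protein mRNAs, was gained with a coding peak at rank 244, and Celf5 was gained at rank 4757. Celf2, Celf3, Elavl2, Msi1 and Ncl were shared. Elavl4, Qk, Zfp36l1, Zfp36l2, Cpeb4, Lin28b and Msi2 had no peak on either later day, while Elavl3 and Igf2bp2 had one on both.

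A list drawn up for cortical neuron identity, most of it transcription factors, also stood mostly on the lost side. Of 37 listed genes 14 had a peak, 8 of them lost (57.1%, beside 30.7% over all genes), 2 gained and 4 shared. The lost members were Satb1, Cux1 with a 3' UTR peak at rank 83, Foxp1 with 7 peaks, Auts2 with 6, Nfia, Zeb1, Sp8 and Dlx2. Dlx2 is a factor of the ventral forebrain that gives rise to interneurons. The list is thus broader than its name, and the count describes its members only. Fezf2 and Bcl11a, which specify subcortical projection neurons, were shared and their peaks overlapped by 225 and 226 bases. With the stronger 50% of peaks of each day the list had 5 lost, 2 gained and 3 shared members. Over all genes that setting gave 34.6% lost, 51.1% gained and 14.4% shared. Of the 20 Wnt pathway genes with a peak, 9 were lost (45%, beside the same 30.7%), among them Gsk3b with 3 peaks and a best rank of 213, Bcl9 at rank 169, Apc, Axin1, Lef1, Fzd2 and Fzd3. Ctnnb1, which encodes the pathway's effector beta-catenin, was gained at rank 4468.

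The listed genes of the cytosolic ribosome were mostly lost, though few in number. Of 82 members 10 had a peak on either day, beside 3718 of all 21992 protein-coding genes. Of the 10, 8 were lost, 2 shared and none gained, beside 30.7% lost and 46.4% gained over all genes. The lost peaks of Rpl12, Rpl13, Rpl27, Rpl30, Rps6, Rps27l and Rps28 had ranks from 4147 to 6044, in the weaker part of the list, and Rpl41 had rank 997. With the stronger 50% of peaks the list had 2 lost members and none shared or gained, beside 34.6% lost over all genes. Ribosomal protein genes have many processed copies, so reads may be shared between copies and these entries are uncertain.

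The strongest gained peaks also lay in genes of varied function. Taok3, a protein kinase gene, ranked 7 of the E13.5 list, but its 2161-base peak (chr5:117263770-117265930) was centred in an intron. Sik3, another kinase gene, ranked 13 with a 50-base 3' UTR peak (chr9:46202320-46202369). Vps37b, of the endosomal sorting machinery, ranked 28 with 3 peaks, and St3gal1, a sialyltransferase gene, ranked 29. Eomes, which encodes TBR2, the defining factor of intermediate progenitors, ranked 39 with 3 peaks, the strongest spanning 2038 bases (chr9:118482271-118484308). That peak was centred in an intron, and the gene already had a same-strand peak outside its exons at E11.5. Sema3a, a secreted axon repellent, ranked 52 with 1 peak in its 3' UTR. Rnf130 ranked 43 and Paqr3 59. Taok3, Vps37b and St3gal1 were listed on both later days, Eomes at E15.5 only, and Sema3a, Rnf130 and Paqr3 on neither.

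No axon guidance gene was shared. Of 52 members 16 had a peak on either day: 12 were gained (75%) and 4 lost, beside 46.4% gained and 22.9% shared over all genes. The gained set held the ligand genes Sema3a, Sema4d, Sema4g, Sema5a at rank 165, Sema6a and Efnb1. It also held the receptor genes Plxna2, Robo2 and Unc5a, the adhesion molecules L1cam and Nrcam, and Srgap1, a signalling partner of Robo receptors. Efna2 at rank 283, Efnb2, Ncam1 and Srgap2 were lost, so ligands and adhesion molecules appear on both sides. With the stronger 50% of peaks, 6 were gained and 3 lost, beside 51.1% gained and 34.6% lost over all genes.

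Synaptic genes were also mostly gained: of 49 members 16 had a peak, 12 gained (75%, beside 46.4% over all genes), 2 lost and 2 shared. The gained members covered vesicle release (Snap25, Syn1, Cplx1 and Cplx2), AMPA receptor subunits (Gria2 at rank 232 and Gria3) and the postsynaptic scaffold (Shank1 and Dlg1). Vamp2, a vesicle SNARE gene, and Dlg4, which encodes PSD-95, were shared. Of 30 neuronal cytoskeleton and growth genes with a peak, 16 were gained (53.3%, close to the 46.4% over all genes), 6 lost and 8 shared. Cytoskeletal regulators of young neurons were on both sides: Dcx, Mapt, Stmn1, Stmn2, Stmn3 and Dpysl5 were gained, while Map1b with 7 peaks, Map2 and Marcksl1 at rank 50 were lost.

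In the main count, few genes of histone acetylation and nucleosome remodelling were lost. Of 18 histone acetylation genes with a peak, 9 were gained (50%, close to the 46.4% over all genes) and 8 shared. The acetyltransferase gene Kat2a alone was lost (5.56%, beside 30.7%). Crebbp, Ep300, Hdac2, Hdac8 and Rcor1 were among the gained. Crebbp had no peak with the longest isoform only, and Hdac2 had none without peaks over 1000 bases. With the stronger 50% of peaks the counts were 5 gained, 3 lost and 3 shared, so the low lost share was not seen there. Over all genes that setting gave 51.1% gained, 34.6% lost and 14.4% shared. Of 27 nucleosome remodelling genes 13 were gained, 11 shared and 3 lost (11.1%, beside 30.7% over all genes). The gained remodellers included Bcl7a with 3 peaks and a best rank of 263, Baz2b, Pbrm1, Actl6a, Chd7, Chd8, Arid1b and Smarca2, and the lost ones were Smarca5, Smarcc1 and Smarcd3. Histone methylation genes were shared in 11 of 21 cases (52.4%, beside 22.9% over all genes), gained in 6 and lost in 4. The shared ones included Kmt2a, Kmt2d, Nsd1 and Setd5, the last with 13 exonic peaks at E11.5 and 3 at E13.5. Counts with the stronger 50% of peaks were 4 gained, 6 lost and 6 shared, beside the same 51.1%, 34.6% and 14.4% over all genes.

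Genes of vessels and meninges were on the gained side. Of 20 members 10 had a peak, 8 of them gained, 2 shared and none lost, beside 46.4% gained and 30.7% lost over all genes. The gained members were the collagen genes Col1a1, Col1a2, Col3a1 and Col4a2, and Dcn, Sparc at rank 126, Sparcl1 and Vtn. By the narrower set of 10 markers, 2 had a peak at E11.5 (Col4a1 and Igf2) and 6 at E13.5, whereas the endothelial and mural genes Pecam1, Cldn5, Kdr and Pdgfrb had none on either day. Their part in the other gained groups was not tested. In bulk cortex, a change in the number of cells of a type and a change in RNA per cell cannot be told apart, and the lists measure neither. Of blood markers none of 4 had a peak, of microglial markers only Csf1r at E13.5, and of oligodendrocyte markers none.

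**Figure D1:**
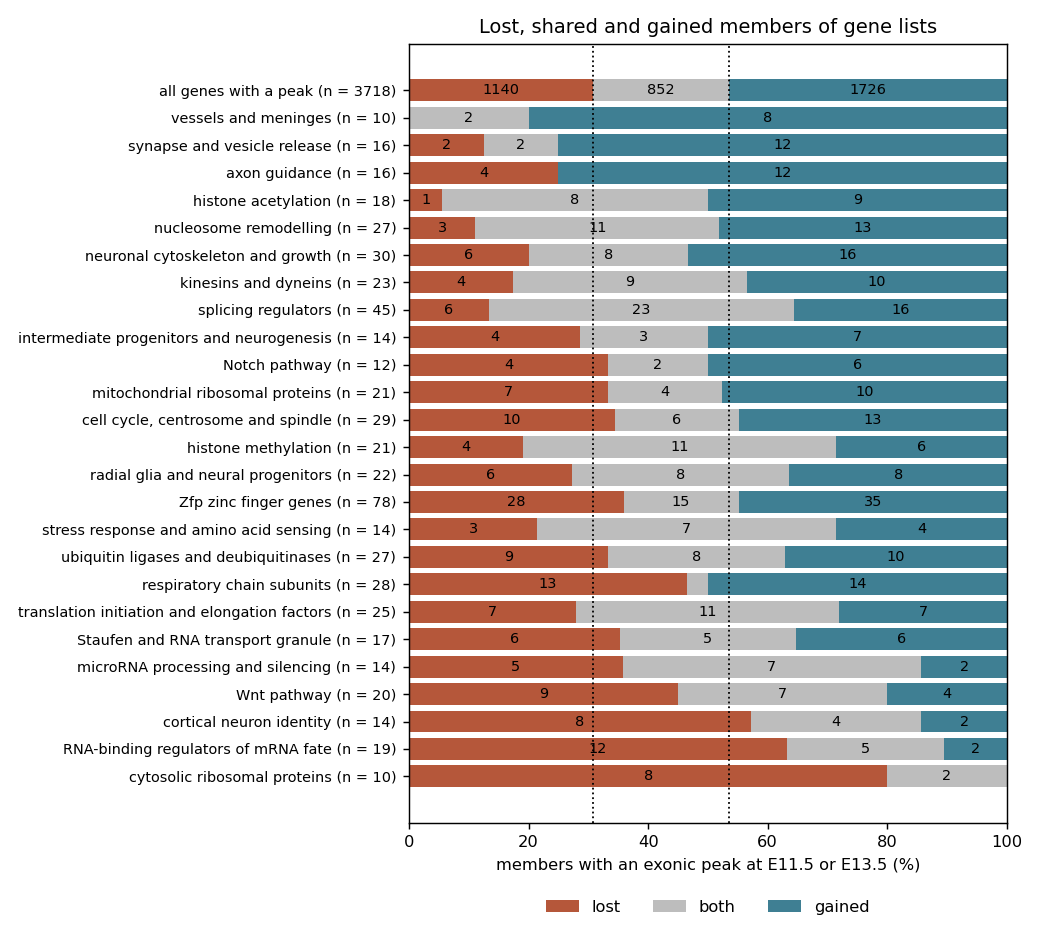
Share of lost, shared and gained genes among the members of each gene list that had an exonic peak at E11.5 or E13.5, for lists with at least 10 such members; the x axis is percent, the numbers are genes, and the dotted lines mark the shares over all 3718 genes. Axon guidance and synapse genes reach 75% gained, and RNA-binding regulators of mRNA fate 63.2% lost. The lists were chosen with earlier results of these data known.

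Progenitor and cell cycle genes lay nearer to the shares over all genes, which were 46.4% gained, 30.7% lost and 22.9% shared. Radial glia and neural progenitor genes split into 8 gained, 6 lost and 8 shared of 22. Pax6, Sox3, Sox9, Prom1 and Notch3, the last with a coding peak at rank 215, were gained, and Hmga2 with 6 peaks, Hmga1, Notch1, Nr2f2, Cdh2 and Rspo1 were lost. Emx2, Lhx2, Gli3, Nr2e1 and Ccnd2 were among the shared. Intermediate progenitor and neurogenesis genes had 7 gained of 14, with Eomes, Neurod1, Neurod2, Neurod6 and Gadd45g among them, while Neurog2 and Tbr1 were lost and Neurog1 and Nhlh1 shared.

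Cell cycle, centrosome and spindle genes were gained in 13, lost in 10 and shared in 6 of 29 cases. The spindle genes Tpx2 at rank 114, Tacc3, Aspm, Aurka, Plk1 and Bub1b were gained, whereas the cyclin genes Ccna2 and Ccnb1, the phosphatase gene Cdc25b at rank 54 and the kinetochore genes Cenpe and Cenpf, the latter with 7 peaks, were lost. Respiratory chain subunit genes were divided into 14 gained and 13 lost, and only Ndufs5 was shared (3.57%, beside 22.9% over all genes). The 78 Zfp zinc finger genes with a peak, at 35 gained, 28 lost and 15 shared, stood close to the shares over all genes.

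Of 51 splicing regulators 45 had a peak, 23 of them shared (51.1%, beside 22.9% over all genes), 16 gained and 6 lost. Shared members included the SR protein genes Srsf2, Srsf3, Srsf4, Srsf6, Srsf7 and Srsf10, the neuronal regulators Nova1, Nova2 and Ptbp2, and Srrm2 with 6 peaks at E11.5 and 9 at E13.5. Rbfox2 with 5 peaks, Rbfox3 and Srrm4, regulators of neuronal exons, were gained, and Mbnl1, Hnrnpk and Hnrnpa1 were lost. Where exons had to hold 50% of each peak, 20 were gained and 16 shared, beside 48.0% and 21.1% over all genes. With the stronger 50% of peaks 12 were gained and 11 shared, beside 51.1% and 14.4% over all genes. In 10 of the 23 shared genes peaks of the days overlapped. Genes of microRNA processing and silencing were shared in 7 of 14 cases, among them Ago2, Dicer1 and Dgcr8, while 5 were lost (35.7%) and 2 gained. Over all genes 22.9% were shared and 30.7% lost. Counts with the stronger 50% of peaks were 4 gained, 5 lost and 4 shared, beside 51.1%, 34.6% and 14.4% over all genes.

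Translation initiation and elongation factors had 7 gained (28%), 7 lost (28%) and 11 shared (44%) of 25. Over all genes 46.4% were gained, 30.7% lost and 22.9% shared. Pabpc1, the main cytoplasmic poly(A)-binding protein gene, was shared with 9 and 5 peaks that overlapped by up to 1477 bases, and Eif4g1 and Eif4a2 were gained while Eif4a1 and Eif5 were lost. Stress response and amino acid sensing genes were shared in 7 of 14 cases, beside 22.9% over all genes, with 4 gained, among them Ddit4 at rank 176, and 3 lost. The stricter exon rule left 5 gained, 3 lost and 3 shared, beside 48.0%, 30.8% and 21.1% over all genes. Kinesin and dynein genes had 10 gained (43.5%), 4 lost (17.4%) and 9 shared (39.1%) of 23. Notch pathway genes had 6 gained (50%), 4 lost (33.3%) and 2 shared (16.7%) of 12. Nonsense-mediated decay genes had 2 (28.6%), 3 (42.9%) and 2 (28.6%) of only 7. Ubiquitin ligase and deubiquitinase genes had 10 gained (37.0%), 9 lost (33.3%) and 8 shared (29.6%) of 27. Mitochondrial ribosomal genes, at 10 (47.6%), 7 (33.3%) and 4 (19.0%) of 21, stood close to the shares over all genes.

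Genes of Staufen and RNA transport granules had 6 gained (35.3%), 6 lost (35.3%) and 5 shared (29.4%) of 17. Over all genes the shares were 46.4%, 30.7% and 22.9%. Stau1, the paralogue of Stau2, was gained with 2 peaks, as were Fmr1, G3bp1, Upf1, Ddx1 and the neuronal kinesin gene Kif5a. Caprin1, Purb, Syncrip, Hnrnpu and Zfr were among the lost. Stau2, Casc3, Ddx6, Klc1 and Prkra were shared, and in none of these 5 did peaks of the days overlap. The Stau2 peak ranked 631 at E11.5 and 1687 at E13.5, and the gene had 1 exonic peak on each day.

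Most shared genes had no overlapping peak. Of 852 shared genes, 335 (39.3%, exact 95% interval 36.0% to 42.7%, over genes and for counting error only) had exonic peaks that overlapped by at least 1 base. Strongest peaks overlapped in 164 (19.2%), and the strongest E11.5 peak was overlapped by any E13.5 exonic peak in 240 (28.2%). Where peaks did overlap they usually matched closely, with a median overlap of 83 bases and of 100% of the shorter peak. In the 517 genes without overlap the nearest peaks were a median of 1148 bases apart in the genome, and 104 lay within 200 bases of each other. The share was higher in genes with more peaks: 22.6% of the 314 genes with 1 peak on each day, 64.8% of the 145 whose smaller number of peaks was 2, and 82.9% of the 41 with 3 or more on both days. At the later steps the share was 42.4% and 47.1%.

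Fkbp1a was the extreme case, with an identical peak of 155 bases in both lists, at rank 46 and rank 60. Capzb peaks overlapped by 321 bases at ranks 94 and 374, and Hmgn5, a nucleosome-binding protein gene on the X chromosome, by 134 bases at ranks 85 and 198. Zfand3, at rank 2 of the E11.5 list, had 1 peak there and 4 at E13.5, the overlapping one at rank 295. Mki67 carried 10 exonic peaks at E11.5 and 14 at E13.5, the most of any gene that day. Its largest overlap was 533 bases although its strongest peaks did not meet.

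Other shared genes changed position within the same part. Celf3, a neuronal splicing and translation regulator gene, had coding peaks at chr3:94487162-94487257 and chr3:94488226-94488279. Sh3gl2, an endocytosis gene, had its 3' UTR peaks at chr4:85388479-85388568 and chr4:85389007-85389117. In Nsd3, Mknk2 and Rab21 too both peaks lay in the 3' UTR without meeting, and in Eif4g2 both lay in coding sequence. Of the 517 shared genes without any overlap, 204 (39.5%) had their strongest peaks in the same part and 313 in different parts.

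**Figure D2:**
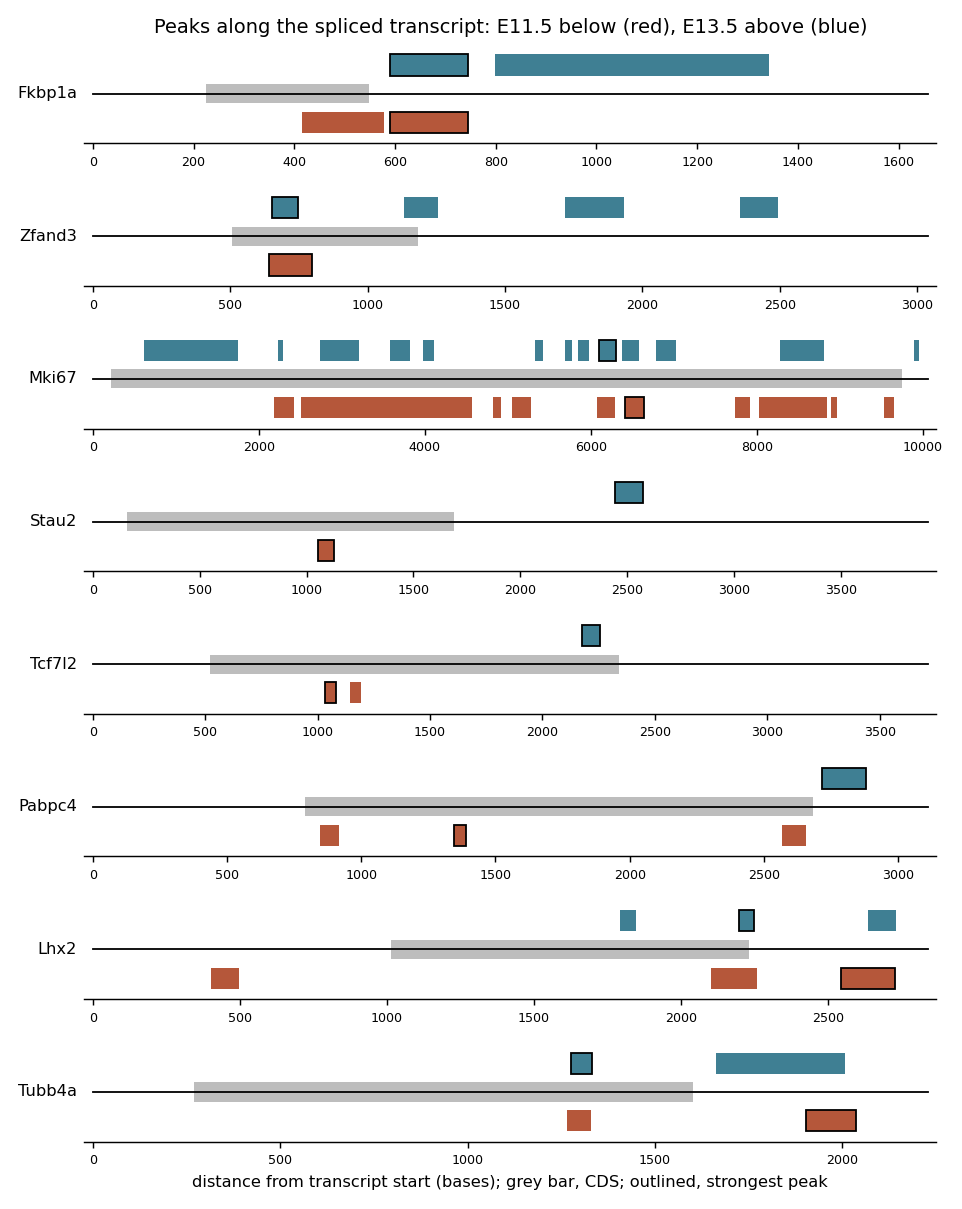
Exonic peaks of 8 shared genes along a spliced transcript, with the distance from its start in bases on the x axis; E11.5 peaks are red and below the line, E13.5 peaks blue and above it, the coding sequence is grey and each day's strongest peak is outlined. Fkbp1a and Zfand3 keep their strongest peak, Stau2, Tcf7l2 and Pabpc4 have no overlapping peak, and in Lhx2 and Tubb4a each day's strongest peak is overlapped by a weaker peak of the other day; the E13.5 peak of Tcf7l2 counts as 3' UTR through isoforms other than the one drawn.

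The strongest peak lay in the 3' UTR more often at E13.5 than at E11.5, in shared genes and across the turnover alike. In lost genes 39.3% of the strongest peaks were centred in a 3' UTR and 33.2% in coding sequence, and in gained genes 50.9% and 27.8%. In shared genes the E11.5 peaks divided into 38.3% and 39.1%, and the E13.5 peaks of the same genes into 50.8% and 30.05%. Of peaks in either of these parts, the 3' UTR held 54.2% (50.7% to 57.6%) in lost genes and 64.7% (62.0% to 67.2%) in gained genes. The corresponding values in shared genes were 49.5% (45.6% to 53.4%) at E11.5 and 62.8% (59.1% to 66.5%) at E13.5, a difference of 13.4 percentage points. With every exonic peak counted in place of the strongest, that difference was 9.88 points.

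**Figure D3:**
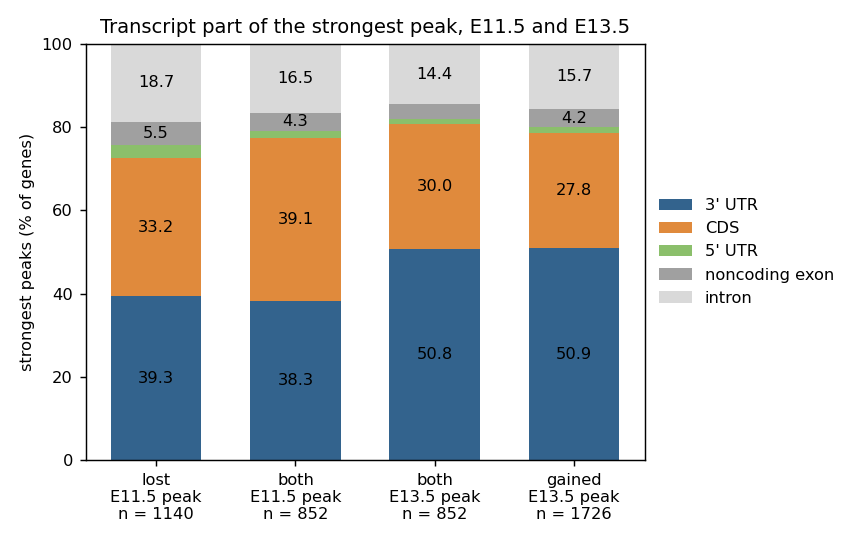
Transcript part at the midpoint of each gene's strongest peak, in percent of genes, for lost genes, shared genes on each day, and gained genes. The blue 3' UTR section covers 39.3% and 38.3% of the E11.5 bars and 50.8% and 50.9% of the E13.5 bars; intron means a peak that touches an exon while its midpoint lies in an intron.

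Moves from coding sequence to the 3' UTR outnumbered the opposite moves. Of 333 shared genes with a coding peak at E11.5, 113 (33.9%) had their strongest E13.5 peak in the 3' UTR, and of 326 with a 3' UTR peak, 50 (15.3%) had it in coding sequence. A 3' UTR peak stayed in the 3' UTR in 239 genes (73.3%), and a coding peak stayed coding in 149 (44.7%). Of the 141 genes whose E11.5 peak was centred in an intron, 60 had a 3' UTR peak and 45 a coding peak at E13.5. A change of the strongest peak need not mean that a site was absent from a list, since exonic peaks of the same gene overlapped in 24 of the 113 genes and in 20 of the 50. In 20 and 19 of these the overlap involved the strongest peak of at least 1 of the days.

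**Figure D4:**
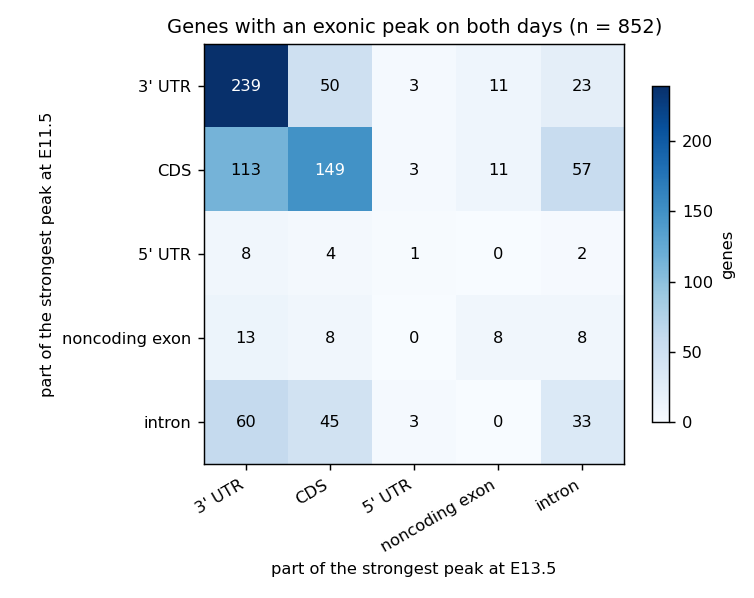
Number of the 852 shared genes by the part of the strongest peak at E11.5 (rows) and E13.5 (columns). The cell for coding sequence to 3' UTR holds 113 genes and the opposite cell 50.

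Genes that moved towards the 3' UTR included transcription factors and RNA-binding proteins. Tcf7l2, a Wnt effector, went from a coding peak at rank 45 to a peak at rank 1115 that is 3' UTR in some isoforms and coding in others. Pabpc4, which encodes a poly(A)-binding protein, had 3 coding peaks at E11.5, the best at rank 1686, and 1 3' UTR peak at E13.5 at rank 91 (chr4:123298530-123298696). Rbm26, an RNA-binding protein gene, had a coding peak at rank 1249 and then a 3' UTR peak at rank 504. In Phf21a and Sall1 the strongest peaks moved likewise, while exonic peaks of the days overlapped by up to 40 and 54 bases. Stau2 itself, Casc3 of the exon junction complex and the decay helicase gene Ddx6 also belong here.

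The opposite move was found in Ttyh1, a membrane protein gene of neural progenitors, whose single peak went from the 3' UTR at rank 307 to coding sequence at rank 850. It was also found in Lhx2, a selector gene of cortical progenitors, in Tubb4a and in Max, the partner of MYC. In these the strongest E11.5 peak was itself overlapped by a weaker E13.5 peak, by 93, 107 and 110 bases. The strongest E13.5 peak was overlapped by a weaker E11.5 peak, so in Lhx2 and Tubb4a both places were listed on both days. In Max that weaker E11.5 peak was 4326 bases wide and spanned the whole 56-base E13.5 peak. In Scrt2, a neuronal repressor gene, the largest overlap was 121 bases. Srsf4 is a change of label, since its E13.5 peak of 1199 bases contained the whole 269-base peak of E11.5. Dicer1 went from a 3' UTR peak at rank 1726 to a coding peak at rank 427.

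The groups also differed in how often they were listed on later days, which played no part in sorting the genes. A peak at E15.5 was listed for 80.2% of shared genes (77.3% to 82.8%), 59.2% of gained genes (56.8% to 61.5%) and 47.4% of lost genes (44.4% to 50.3%). The share was 11.6% of the 18274 protein-coding genes without a peak on either earlier day. Those genes were not filtered for expression, so any that the cortex does not express are counted too. At E17.5 the shares were 51.3%, 41.9%, 24.2% and 8.40%. The lost genes listed again at E15.5 numbered 540, among them Atf4, Rfng, Tbr1, Neurog2, Map1b, Gsk3b, Hmga2, Foxp1 and Notch1. For 522 lost genes (45.8%) no peak was listed on either later day, beside 501 of the gained genes (29.0%) and 121 of the shared genes (14.2%).

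**Figure D5:**
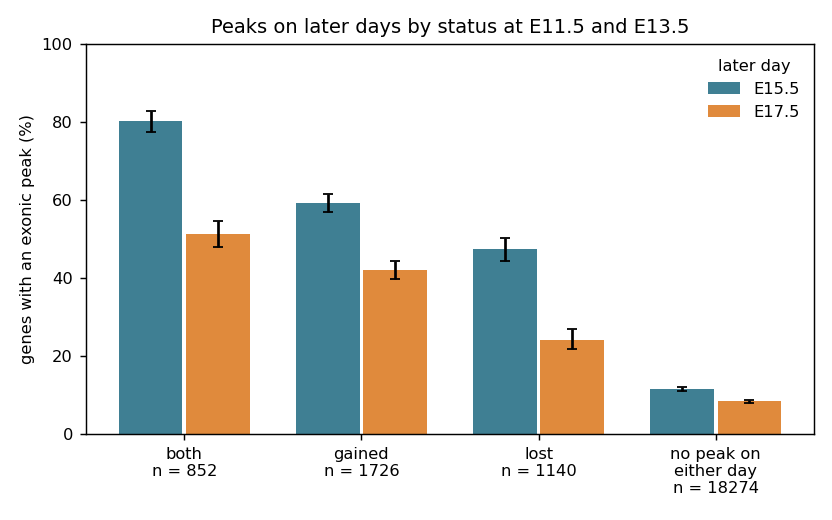
Percent of genes with an exonic peak at E15.5 and E17.5, by status between E11.5 and E13.5, with exact 95% binomial intervals over genes. Shared genes reach 80.2% at E15.5, gained genes 59.2%, lost genes 47.4% and genes with no earlier peak, which were not filtered for expression, 11.6%.

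The strongest earlier peak was overlapped at E15.5 in a minority of genes, counted over each whole group, listed again or not. The strongest E11.5 peak of a lost gene was overlapped by a peak at E15.5 in 120 of 1140 genes (10.5%), and the strongest E13.5 peak of a gained gene in 302 of 1726 (17.5%). For the E13.5 peaks of shared genes the share was 30.9%. Only 540 of the lost, 1021 of the gained and 683 of the shared genes had any exonic peak at E15.5. Overlaps with weaker earlier peaks were not counted here. Atf4 returned with coding peaks on both later days, at rank 340 on E17.5, and Rfng with 3' UTR peaks. Vessel and meninges genes had 10 members listed at E13.5, 4 at E15.5 and none at E17.5. Of RNA-binding regulators of mRNA fate, 17 had a peak at E11.5, 7 had one at E13.5 and 13 at E15.5. By E17.5 their number was 8. The counts of both gene lists depend on list length as well. Over all genes the E15.5 list covered 4358, beside 2578 in the E13.5 list. The E11.5 list covered 1992 genes and the E17.5 list 2972. The rise of the regulators from 7 to 13 thus came with a longer list.

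Gained and lost peaks were of similar strength and width. The strongest peak of a lost gene stood at a median of 45.6% of the way down the E11.5 list, and that of a gained gene at 43.9% of the E13.5 list, against 37.7% and 36.7% for shared genes. Median widths were 76 bases in lost genes, 77 in gained genes, and 88 and 95 in shared genes on the respective days. More than 1 exonic peak was found in 28.2% of lost and 24.0% of gained genes, and in 43.8% and 41.2% of shared genes. Gnaq, a G protein subunit gene, had 13 exonic peaks at E11.5 and 1 at E13.5. Hipk2, a kinase gene, had 10 at E11.5 and was lost, and Bicra, of a chromatin remodelling complex, had 11 at E13.5 and was gained. Exosc7, an RNA exosome subunit gene, was gained with 13.

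Lost genes had longer 3' UTRs than gained genes, although fewer of their peaks lay there. The median 3' UTR of the longest isoform was 1613 bases in lost genes, 1051 in gained genes and 1297.5 in shared genes, beside 875 over all protein-coding genes. Median coding lengths were 1243.5, 1383 and 1248 bases. Peaks that lay wholly in a 3' UTR had a median predicted folding energy of -16.0 kcal/mol per 100 bases in lost genes and -18.5 in gained genes, with a middle range from -21.7 to -10.8 and from -24.9 to -12.6. Median GC content was 46% and 48%. For coding peaks the medians were -19.0 and -19.7 kcal/mol per 100 bases, with GC contents of 52.7% and 52.8%. The ranges overlap over most of their width, and no test was made on these values.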

How the data were processed

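The data are 8 deposited peak lists, 1 per day and strand, made by the authors from 24 RIP and input libraries. Per the submitters' processing notes, TopHat2 2.0.9, bedtools 2.17.0 and Cufflinks 2.2.1 were used, and the build was mm10. No peak caller or test is named there. The deposited p-value and q-value of each peak are the authors' own, and p served only to rank peaks within a day over both strands. The other deposited columns were not used.

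Peaks were assigned to GENCODE vM21 protein-coding genes (GRCm38) by at least 1 base of same-strand exon, and to a part at their midpoint, over all protein-coding isoforms, with 3' UTR before coding sequence, 5' UTR, noncoding exon and intron. A peak over exons of several genes counted for each. Sequences were folded with ViennaRNA RNAfold 2.7.2. Scripts ran in Python 3.11.15 with SciPy 1.17.1 and were tested on simulated peaks for E11.5 against E13.5, where 600 of 600 placed genes were sorted correctly.

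No test over samples was possible with 1 list per day. Exact Clopper-Pearson 95% intervals cover counting error over genes only, and genes are not replicates. The genes named were the 12 with the lowest p among gained and among lost genes, the 12 shared genes of best mean rank, 6 for each kind of overlap or move, the 4 with the most peaks on each day, and members of 27 gene lists. Not all are printed, and some are not reported here. The members and lists were chosen with earlier results of these data known. Alternatives varied the exon rule, isoforms, peak strength, list length, width, overlap and part.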

Additional observations from a re-analysis of the deposited data

How the results depend on the processing

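Under the 7 alternatives for assigning peaks, gained genes numbered 1187 to 1788 and lost genes 804 to 1323, and 775 of the 1726 gained, 502 of the 1140 lost and 266 of the 852 shared genes had the same status in all 7. The number of shared genes fell most with the stronger 50% of peaks, to 334. The share of shared genes with overlapping peaks was then 35.0%, and it was 34.2% where the overlap had to cover 50% of the shorter peak. With the stronger 50% of peaks 46 genes moved from coding sequence to 3' UTR and 18 the other way. The 3' UTR difference between the days in shared genes ranged from 9.88 to 17.4 percentage points, and that between gained and lost genes from 9.92 to 14.0. The depth of the libraries is unknown. No paired analysis was possible because the lists hold no value per replicate, and for the same reason no replicate could be left out.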
